A study of Mus musculus with 8 samples.

Results

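The integrated stress response was followed in mouse liver through 10 genes: the transcription factors Atf4, Atf3 and Ddit3, the pseudokinase Trib3, the amino acid enzymes Asns, Psat1 and Phgdh, the glutathione-degrading enzyme Chac1, the leucine sensor Sesn2 and the hormone Fgf21. They were chosen by name and make up 10 of the 55401 gene identifiers in the deposited count table. All livers came from NOD scid gamma (NSG) mice, a strain without T, B and NK cells, that carried a human colorectal cancer line under the skin. In 4 libraries the line was Colo201, given by the series as high in FGF19, and in 4 it was HCT116, given as low in FGF19. Colo201 2L and 2R and HCT116 1L and 1R are labelled male, and Colo201 4L and 4R and HCT116 3L and 3R are labelled female. The labels give no age and no treatment beyond the xenograft, and livers of hosts without a tumour were not analysed here. Each group rests on 1 tumour line, so the level of FGF19 and any other property of the line cannot be told apart. Nothing in the labels tells if the L and R libraries with the same title number were taken from different mice. The p-values therefore reflect library-to-library spread, part of which could be technical. In a chi-square of the counts, L and R of a title number, which share line and label, were the most alike. Their values were 52.8 to 106.9 per gene, against at least 133 for all other pairs. If L and R are not independent, the p-values are too small.

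In this response, kinases that sense amino acid shortage, unfolded protein, haem lack or viral RNA phosphorylate the initiation factor eIF2alpha. General translation then falls while translation of the Atf4 mRNA rises, and ATF4, with C/EBP partners, switches on genes of amino acid uptake and synthesis, of transfer RNA charging and of feedback control. Much of the control of ATF4 is therefore on translation, which RNA levels do not measure. In liver, Fgf21 is induced by ATF4 and, in fasting, by the nuclear receptor PPARA. FGF19 is the human counterpart of mouse Fgf15, a gut hormone that acts on hepatocytes through FGFR4 and beta-Klotho and represses the bile acid enzyme Cyp7a1.

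The letters that ATF4 and a C/EBP partner recognise together are TGATGNAA, and 5 of the 10 genes carry them in the promoter window of the RefSeq table for GRCm38.p6, in which all 10 were found by symbol, from 250 bases before to 50 bases after the annotated start. They are printed here because they show which of the genes hold the element next to their start. Over all 32851 windows of that length, 1304 (3.97%) hold the letters on either strand. Each line below gives the 8 matched bases in capitals with 11 bases on each side, read 5′ to 3′ on the strand that carries the match.
Trib3: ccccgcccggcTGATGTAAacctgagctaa
Fgf21: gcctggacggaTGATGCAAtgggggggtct
Atf3: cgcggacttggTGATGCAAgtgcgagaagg
Chac1: cctggcaggagTGATGCAAcggcagggaag
Asns: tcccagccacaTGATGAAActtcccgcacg
The Trib3 stretch is chr2:152344028-152344057 (+), with the match 15 bases after RefSeq's start, on the strand opposite to the gene. The Fgf21 stretch is chr7:45615611-45615640 (+), 139 bases before the start, and the Atf3 stretch is chr1:191183425-191183454 (+), 110 bases before it. The Chac1 stretch is chr2:119351038-119351067 (-), 193 bases before the start, and the Asns stretch is chr6:7693214-7693243 (-), 23 bases before it. Atf3, Chac1 and Fgf21 share the same 8 letters, while Trib3 and Asns differ from them at the degenerate position. The gene models of GENCODE vM21 start elsewhere for all of these but Fgf21. They start at 152344032 for Trib3, 7693254 for Asns, 191218039 for Atf3 and 119351229 for Chac1. By these the Trib3 and Chac1 matches lie before the start and the Asns match just inside the gene. The Atf3 match lies well inside the gene, far from its outermost start. The other 5 genes, Atf4, Ddit3, Sesn2, Psat1 and Phgdh, do not have these letters in this window. The ER stress element bound by ATF6 (CCAAT, 9 bases, CCACG) was found in 39 windows (0.119%) and in none of the 10 genes. These are matches of letters only.

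The libraries held 61347603 to 65457482 estimated counts and 19370 to 20272 genes with a count. Libraries labelled male had Xist at 239 to 373.5 CPM (counts scaled to library size) and 4 genes of the Y chromosome at 0 to 0.076 CPM. Libraries labelled female had Xist at 0.275 to 0.833 CPM and these Y genes at 8.93 to 65.7 CPM, so all 8 libraries go against the sex label. The label is used here only as a name, and the comparison of lines, which carries it as a covariate, is the same under either reading. Cyp7a1 was at 1.26 ± 1.64 CPM in Colo201 hosts and 207.5 ± 19.4 CPM in HCT116 hosts (SD, n = 4), a log2 fold change of -7.59 (edgeR, adjusted p = 0.00366). Hepatocyte markers summed to 162500 to 197800 CPM in Colo201 hosts and 137100 to 183000 CPM in HCT116 hosts, so the tissue matches its label. In whole liver, fewer cells of a type and less RNA per cell cannot be told apart.

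Per length, the 10 genes spanned levels from abundant to barely detected. The median over the 8 libraries was 38.4 FPKM (fragments scaled to gene length and library size) for Atf4 and 17.9 for Trib3. Ddit3 followed at 3.58, Sesn2 at 3.36, Atf3 at 1.89, Chac1 at 1.87 and Fgf21 at 0.92 FPKM. Psat1 stood at 0.09, Asns at 0.075 and Phgdh at 0 FPKM. In this order only the steps from Trib3 to Ddit3 and from Fgf21 to Psat1 had ranges that did not overlap, so the neighbours among Ddit3, Sesn2, Atf3, Chac1 and Fgf21 do not differ beyond their spread. Related genes were read on the same scale. Atf5, another ATF factor controlled through eIF2alpha, had a median of 92.4 FPKM (63.5 to 202.6), above the whole range of Atf4 (30.9 to 49.9). Chac2, a paralog of Chac1, had 21.1 FPKM, above the range of Chac1. Trib1, a paralog of Trib3, had 11.1 FPKM (8.42 to 12.9), inside the range of Trib3 (6.5 to 40.4), and Sesn1 had 3.46, inside that of Sesn2. The range of Trib3 joins lines that do not overlap. In Colo201 hosts Trib3 (22.3 to 40.4 FPKM) was above Trib1 (9.6 to 12.2). In HCT116 hosts Trib3 (6.5 to 13.5 FPKM) overlapped Trib1 (8.42 to 12.9) and was below Atf4 (30.9 to 45.6). Fgf15 had 0 counts in all 8 libraries, which allows up to 0.196 CPM in the shallowest (3 fragments, counting error only).

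**Figure D1:**
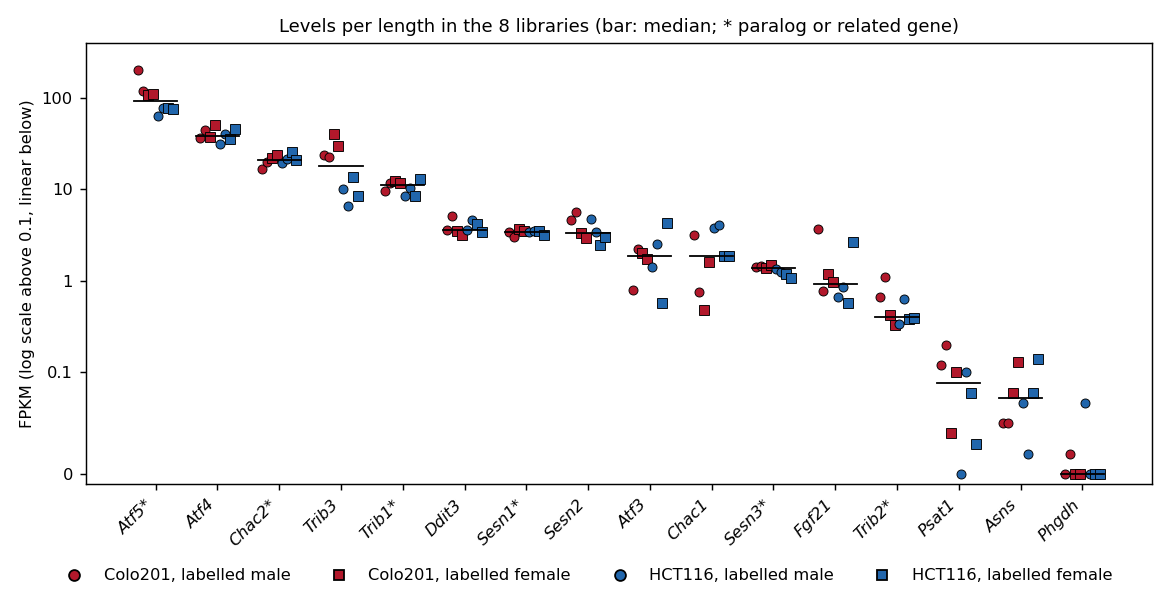
Deposited FPKM of the 10 genes and of related genes (marked with an asterisk) in each of the 8 libraries, on a log scale above 0.1 and a linear scale below, with the median as a bar. Trib3 is the gene among the 10 whose Colo201 points (red) all lie above its HCT116 points (blue), and Asns, Psat1 and Phgdh lie near 0.

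Between the lines, Trib3 was the 1 gene of the 10 that was called higher in Colo201 hosts, and 0 were called lower. The comparison tested 16819 genes with edgeR's quasi-likelihood test, sex label as a covariate and Benjamini-Hochberg adjustment, and 5.35% of them passed at 0.05 (456 or 2.71% higher, 444 or 2.64% lower). That share moved with the setting: DESeq2 called 966 higher and 1016 lower, a fit without the sex label 105 and 102, and fits with 1 library left out 89 to 280 and 91 to 294. Of the 10 genes, 9 passed the filter on low counts and 1 of these 9 passed the test. So few genes cannot set this share apart from that over all genes. A gene that did not pass may still differ, as with Psat1 (95% interval -1.04 to 3.27) and Fgf21 (-1.13 to 2.18). DESeq2, which called 11.8% of all genes, and limma voom, which called 6.17%, each gave 1 higher and 0 lower among the 9. At an unadjusted p under 0.05 the count was 1 with edgeR (22.6% of all genes), 2 with DESeq2 (23.9%) and 2 with limma voom (23.8%). The median log2 fold change of the 9 was 0.18, against 0.002 over all genes tested.

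TRIB3 is a pseudokinase induced by ATF4 and CHOP that binds and restrains ATF4 and the kinase AKT. Trib3 (ENSMUSG00000032715, chr2:152337422-152344032, minus strand, GRCm38) stood at 55.3, 52.2, 94.7 and 68.8 CPM in the Colo201 libraries 2L, 2R, 4L and 4R. In the HCT116 libraries 1L, 1R, 3L and 3R it stood at 23.4, 15.1, 31.4 and 19.6 CPM. The lowest Colo201 library was above the highest HCT116 library. Complete separation with Colo201 above was seen for 5.79% of all genes tested, and either way for 12.3%, and among the 9 tested genes only for Trib3. The mean was 67.7 ± 19.4 CPM against 22.4 ± 6.92 CPM (SD, n = 4), with adjusted p = 0.0066 (edgeR). The log2 fold change was 1.61 (SE 0.20, 95% interval 1.17 to 2.06), or 3.06-fold. By p it ranked 59 of 16819 genes, and by fold 23 among the 444 genes called higher with a mean of at least 1 CPM. With each library left out in turn the log2 fold change stayed between 1.49 and 1.78 and adjusted p between 0.0147 and 0.0273. With the L and R libraries of a title number summed, which leaves 1 residual degree of freedom, the log2 fold change was 1.61 and adjusted p = 0.111.

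**Figure D2:**
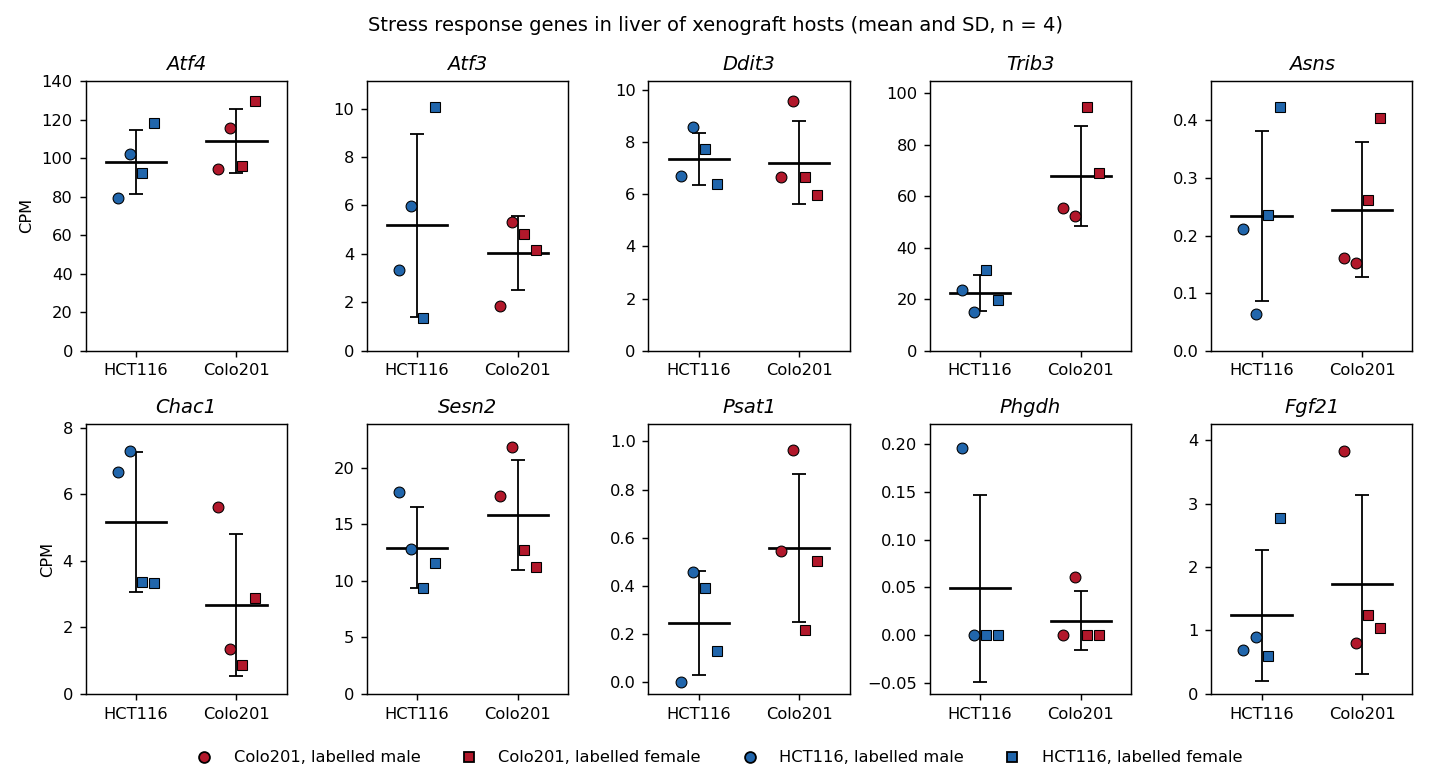
CPM of each of the 10 genes in the 4 HCT116 (blue) and 4 Colo201 (red) libraries, circles for libraries labelled male and squares for those labelled female, with mean and SD. The groups are apart for Trib3 (15.1 to 31.4 against 52.2 to 94.7 CPM) and overlap for the other 9 genes.

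The difference in Trib3 was of like size under both sex labels. In libraries labelled male it was 1.52 on the log2 scale (SE 0.29, adjusted p = 0.112, edgeR), where 0.232% of 17669 genes passed and 13.1% had an unadjusted p under 0.05. In libraries labelled female it was 1.71 (SE 0.29, adjusted p = 0.0601), where 0.492% of genes passed and 14.1% had an unadjusted p under 0.05. With limma voom its adjusted p within the female label was 0.0344. With edgeR 0 of the 9 genes passed within either label, and Trib3 was the 1 gene with an unadjusted p under 0.05 in each. Each side here is 2 libraries, L and R, of 1 title number, possibly of 1 mouse. The same holds for the test between the labels. The difference between the labels was 0.19 (SE 0.40, 95% interval -0.74 to 1.12, adjusted p = 1), in a test that 0.0283% of genes passed. In that test 0 of the 9 genes passed and 0 had an unadjusted p under 0.05, against 4.10% of all genes. Cholangiocyte markers, as a sum of 10 genes, lay at 47.6, 68.4, 82.5 and 94.6 CPM in the Colo201 libraries in the order above and at 44.9 to 54.8 CPM in HCT116 hosts. The highest sums rested on few markers. Krt19 and Epcam were at 25.9 and 12.0 CPM in Colo201 4R and at most 2.23 and 1.40 CPM elsewhere, and Krt23 was highest in Colo201 4L. Of these 10 markers Krt23 alone passed (7 to 32.2 CPM in Colo201 hosts, 0.33 to 2.23 in HCT116 hosts, adjusted p = 0.0166), and their part in the Trib3 result was not tested. The sums of Kupffer cell and macrophage markers (242.5 to 681 against 396 to 623 CPM), of endothelial markers (267 to 482 against 305.5 to 485 CPM) and of stellate cell markers (326 to 345 against 241 to 370.5 CPM) overlapped between the lines. Of the 12 stellate cell markers Reln passed (103.5 ± 15.04 against 57.1 ± 13.5 CPM, adjusted p = 0.0182). Des and Acta2 were above all HCT116 libraries in every Colo201 library without passing (adjusted p = 0.0864 and 0.113). Dcn was lower without passing (log2 fold change -0.38, adjusted p = 0.0882), and its groups overlapped. Of the 12 hepatocyte markers Apoa1, Trf and Ahsg were higher and Cyp2e1 lower (adjusted p = 0.0189, 0.0234, 0.0271 and 0.00733). Fgb, Hnf4a, Lyz2 (a macrophage marker) and Spp1 (a cholangiocyte marker) were below all HCT116 libraries in every Colo201 library. None of them passed (adjusted p = 0.0798, 0.232, 0.1 and 0.177). The part of these markers in the result was not tested either. Neutrophil and lymphocyte markers summed to at most 6.86 CPM over 12 genes, with 2 genes at 0 in all libraries.

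The transcription factors themselves did not pass between the lines. Atf4 (chr15:80255184-80257541), the hub of the response, stood at 94.5, 115, 96.0 and 129.6 CPM in Colo201 hosts and at 79.2, 102, 92.3 and 118 CPM in HCT116 hosts, in the order of libraries given for Trib3. The groups overlapped over most of their range, and the log2 fold change was 0.18 (95% interval -0.14 to 0.50, adjusted p = 0.502). Ddit3 (chr10:127290774-127296288) encodes CHOP, the factor of prolonged stress, and stood at 6.66, 9.56, 6.67 and 5.97 CPM against 6.70, 8.58, 7.75 and 6.39 CPM in the same order. Its groups overlapped entirely around a log2 fold change of -0.01 (95% interval -0.35 to 0.33, adjusted p = 0.974). The Ddit3 locus overlaps Mars on the other strand, and a second identifier with this symbol held 1 count in every library. Atf3 (chr1:191170296-191218039), a repressor and early stress gene downstream of ATF4, stood at 1.86, 5.33, 4.81 and 4.15 CPM against 3.33, 5.97, 1.35 and 10.1 CPM. It was the factor with the widest spread, 7.45-fold from the lowest to the highest library, both of them HCT116 3L and 3R, which share a title number. Its log2 fold change was -0.36 (95% interval -1.63 to 0.91, adjusted p = 0.752), and 0.40 without HCT116 3R. The intervals of Atf4 and Ddit3 lay within 0.5 of 0 on the log2 scale, and that of Atf3 did not.

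The amino acid enzymes had low counts, and Asns and Phgdh were near the limit of detection. Asns (chr6:7675169-7693254), asparagine synthetase, stood at 0.16, 0.153, 0.262 and 0.405 CPM in Colo201 hosts and 0.212, 0.0632, 0.236 and 0.424 CPM in HCT116 hosts. The lines overlapped, and in each of them 1 library labelled female (Colo201 4R and HCT116 3R) was highest. The log2 fold change was 0.11 (95% interval -1.22 to 1.45, adjusted p = 0.931), and it was -0.15 without HCT116 1R and -0.03 without HCT116 3L. Psat1 (chr19:15904678-15947337), the aminotransferase of serine synthesis, stood at 0.545, 0.963, 0.216 and 0.502 CPM against 0, 0.458, 0.393 and 0.13 CPM. Its log2 fold change of 1.12 had a 95% interval from -1.04 to 3.27 (adjusted p = 0.535). Phgdh (chr3:98313170-98339990), the first enzyme of the same pathway, was at 0 in 6 libraries, with 4 counts in Colo201 2R (0.0611 CPM) and 12 in HCT116 1L (0.196 CPM). It did not pass the filter and was not tested. A count of 0 allows up to 0.183 to 0.196 CPM in these libraries (3 fragments, taken as 4 counts each, counting error only), so differences in Asns and Phgdh at these levels were not detectable at this depth.

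Chac1 and Sesn2, targets of ATF4 in glutathione breakdown and in the restraint of mTORC1, lay on opposite sides of 0 without passing. Chac1 (chr2:119351229-119354381) stood at 5.62, 1.36, 0.88 and 2.88 CPM in Colo201 hosts and 6.67, 7.32, 3.37 and 3.34 CPM in HCT116 hosts. Only Colo201 2L reached into the HCT116 range. The log2 fold change was -0.88 (95% interval -1.95 to 0.19, adjusted p = 0.311) and stayed between -1.40 and -0.57 with each library left out. Sesn2 (chr4:132492032-132510501) stood at 17.5, 21.9, 12.8 and 11.2 CPM against 17.9, 12.8, 9.36 and 11.6 CPM. The lines overlapped, with a log2 fold change of 0.30 (95% interval -0.04 to 0.63, adjusted p = 0.276). Its paralog Sesn1 was at 14.8 ± 1.2 and 14.8 ± 0.648 CPM, and Sesn3 at 24.2 ± 0.79 and 20.3 ± 1.88 CPM (SD, n = 4; adjusted p = 0.0992).

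Fgf21 had 1 high library in each line and did not separate them. This hormone of fasting and protein restriction is made mostly by liver. Fgf21 (chr7:45613886-45615490) stood at 3.83, 0.81, 1.25 and 1.04 CPM in Colo201 hosts and at 0.685, 0.901, 0.598 and 2.77 CPM in HCT116 hosts. Colo201 2L and HCT116 3R were the high libraries, and the other 6 lay between 0.598 and 1.25 CPM. The log2 fold change was 0.52 (95% interval -1.13 to 2.18, adjusted p = 0.721). It was -0.33 without Colo201 2L and 1.37 without HCT116 3R (adjusted p = 0.783 and 0.206), so its direction rested on 1 library. Because these libraries carry different sex labels, the difference was 1.63 in libraries labelled male and -0.56 in libraries labelled female, and the test between them gave -2.19 (SE 1.24, adjusted p = 1). Without Colo201 2L it was 0.015 in libraries labelled male, and without HCT116 3R it was 0.995 in libraries labelled female.

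**Figure D3:**
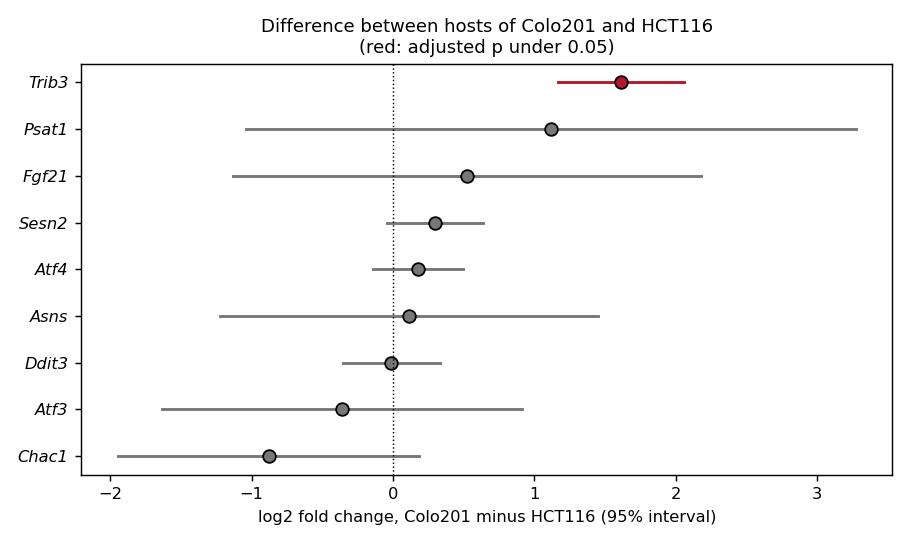
Log2 fold change of Colo201 over HCT116 hosts with its 95% interval for the 9 tested genes, red where adjusted p was under 0.05. The interval of Trib3 (1.17 to 2.06) lies away from 0 and the other 8 intervals include 0.

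Between sex labels, where 4.41% of 16819 genes passed, 0 of the 9 tested genes passed with edgeR, and 2 had an unadjusted p under 0.05 (18.8% of all genes). Sesn2 had the smallest p, 0.63 higher on the log2 scale in libraries labelled male (SE 0.15, adjusted p = 0.0529). With limma voom it passed (0.63, adjusted p = 0.0467), as it did without HCT116 1R (0.74, adjusted p = 0.0423). Trib3 was -0.50 (SE 0.19, adjusted p = 0.199).

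Other genes of the pathway were read from the same fit in 14 lists, which were chosen with earlier results of these data known. Together 229 of their genes were tested, and 14 were higher and 12 lower in Colo201 hosts (11.4%, against 5.35% of all genes), with a median log2 fold change of -0.01. Leaving out 1 library brought these counts down to between 6 and 11 higher and between 0 and 6 lower. Of the 26 genes called, 6 kept the call whichever library was left out, all of them higher: Slc1a4, Cbs, Gldc, Pdia6, Plin2 and Nr1d1. These 6 were singled out after their values were seen. The share of all called genes that keep the call in this way is not given here, so 6 of 26 has no yardstick. Over all genes, leaving out 1 library gave 89 to 280 higher and 91 to 294 lower. Without the sex label as covariate 2 of them lost the call, Pdia6 (adjusted p = 0.0601) and Nr1d1 (adjusted p = 0.112), and with title numbers summed all 6 did. For the others that are named, the highest adjusted p with 1 library left out is given beside the gene. Of 14 other settings of the analysis, 9 ended the call of Mthfd1l, 7 each those of Atf5 and Fgfr3, and 6 that of Castor2.

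**Figure D4:**
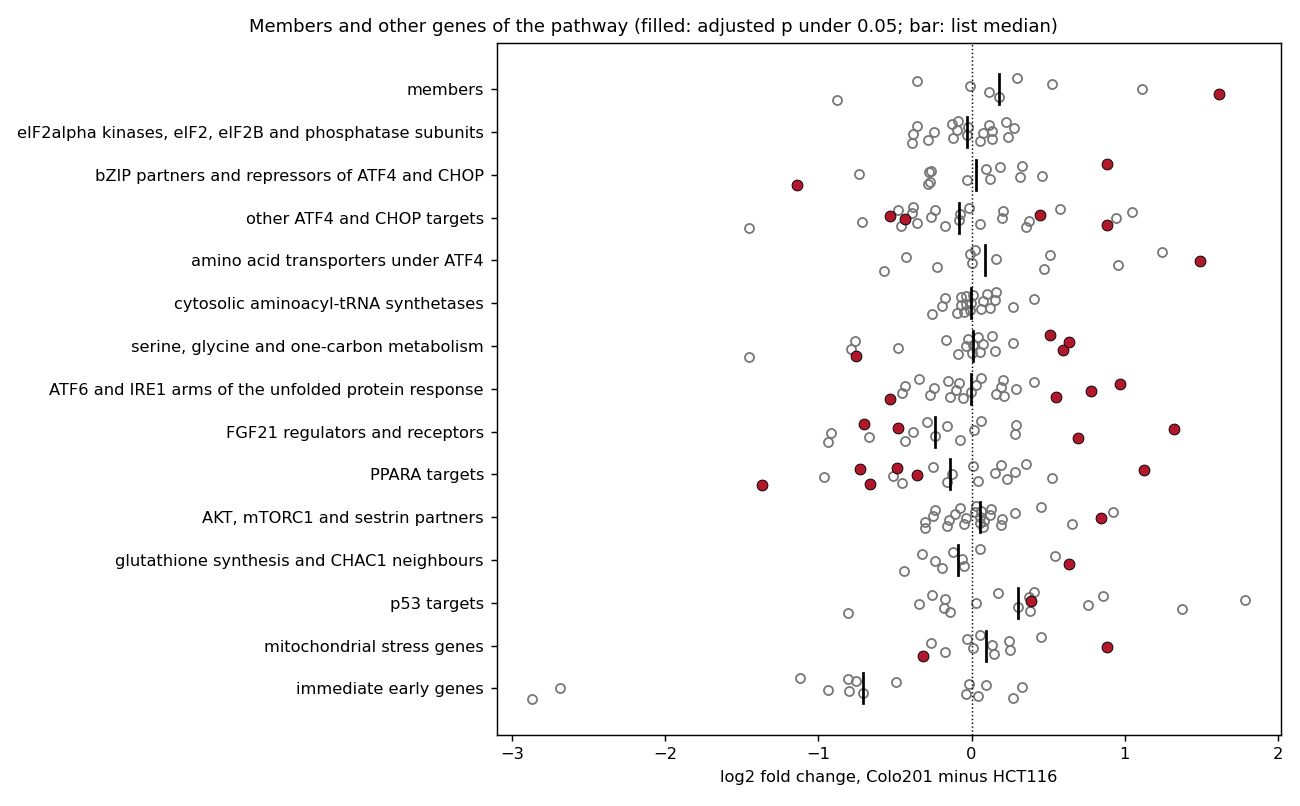
Log2 fold change of every tested gene of the response and of 14 lists of neighbouring genes, filled red where adjusted p was under 0.05, with the list median as a bar. Filled points lie on both sides of 0 in each list that has more than 1, and the lists of eIF2 machinery, transfer RNA synthetases and immediate early genes have none.

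Upstream, none of the 19 kinases, eIF2 and eIF2B subunits and phosphatases passed with edgeR or limma voom, and 4 had an unadjusted p under 0.05. DESeq2 called 3 of them. The 3 smallest p belonged to Impact (-0.36, adjusted p = 0.0698), Ppp1r15b (-0.39, 0.0825) and Ppp1ca (0.27, 0.0943). Impact restrains the amino acid sensor GCN2, Ppp1r15b directs a phosphatase to eIF2alpha, and Ppp1ca is a catalytic subunit of that phosphatase. Among 14 leucine zipper partners and repressors, Atf5 was higher and Nfil3, a repressor of circadian and metabolic genes, was lower. Atf5 stood at 441, 258, 234 and 243.5 CPM in Colo201 hosts and 137, 170, 168.5 and 165.5 CPM in HCT116 hosts. Its groups did not overlap, and its log2 fold change was 0.89 (SE 0.21, adjusted p = 0.0491, up to 0.14 with 1 library left out). The call was lost without any of the libraries but Colo201 2L, and in 7 other settings, among them a fit without the sex label. The locus overlaps Il4i1 and Nup62 on the other strand. Nfil3 was at 5.90 ± 0.708 against 13.4 ± 5.56 CPM (-1.14, adjusted p = 0.0359, up to 0.108 with 1 left out).

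Downstream, the 25 other targets of ATF4 and CHOP gave 2 higher and 2 lower. Higher were Atf5, already given, and Sqstm1, an autophagy receptor (0.45, adjusted p = 0.0334, up to 0.11 with 1 left out). Lower were Herpud1, of the degradation of ER proteins (-0.53, adjusted p = 0.0308, up to 0.0975), and Gpt2, a mitochondrial alanine aminotransferase (-0.43, adjusted p = 0.029, up to 0.0927). Of 12 tested amino acid transporters 1 was higher. This was Slc1a4, a carrier of alanine, serine and cysteine, at 10.5, 8.23, 9.47 and 9.29 CPM in Colo201 hosts and 4.65, 4.65, 2.34 and 2.61 CPM in HCT116 hosts. The groups did not overlap, and the log2 fold change was 1.49 (SE 0.21, adjusted p = 0.0105, at most 0.0409 with 1 library left out). The cystine carrier Slc7a11, a common target of ATF4, did not pass the filter (0.016 against 0.0473 CPM on average). None of 20 cytosolic transfer RNA synthetases passed with edgeR or limma voom, with 3 at an unadjusted p under 0.05, and DESeq2 called Wars (0.41, adjusted p = 0.0698 with edgeR).

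Serine, glycine and one-carbon metabolism gave 3 higher and 1 lower of 20. Cbs, which condenses serine with homocysteine, stood at 495, 456.5, 471 and 488 CPM against 299, 337, 334 and 283 CPM. Gldc, of the glycine cleavage system, stood at 126, 121, 121 and 124 CPM against 87.0, 90.2, 84.0 and 71.1 CPM. Both were higher in every Colo201 library, by 0.64 for Cbs (SE 0.08, adjusted p = 0.0083) and 0.60 for Gldc (SE 0.08, adjusted p = 0.00978), and kept the call with any library left out. Amt, of the same cleavage system, was higher by 0.51 (adjusted p = 0.0347, up to 0.0985) and the mitochondrial folate enzyme Mthfd1l was lower (-0.75, adjusted p = 0.0481, up to 0.145). Cbs was also the 1 gene called among 10 tested genes of glutathione synthesis, the pathway whose product Chac1 degrades.

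The ATF6 and IRE1 arms of the unfolded protein response, which run beside the eIF2alpha arm, gave 3 higher and 1 lower of 23, with a median of -0.002. Higher were Pdia6, a disulphide isomerase (422 ± 87.2 against 249 ± 34.3 CPM, 0.78, SE 0.08, adjusted p = 0.00452, at most 0.0221 with 1 left out), and the chaperone Calr (0.55, adjusted p = 0.0157, up to 0.0613). Sdf2l1, an ER cofactor, was the third (0.97, adjusted p = 0.0199, up to 0.0661). The lower gene was Herpud1. Among 12 genes of mitochondrial stress, Atf5 was higher and the chaperonin Hspd1 lower (-0.31, adjusted p = 0.0462, up to 0.133). Of 17 p53 targets Ccng1 was higher (0.39, adjusted p = 0.0345, up to 0.109) and the list median was 0.31, and DESeq2 called 5. Among 26 genes of AKT, mTORC1 and the sestrin partners, Castor2, a paralog of the arginine sensor Castor1, was higher (0.85, adjusted p = 0.0404, up to 0.11). None of 15 immediate early genes passed with edgeR or limma voom, with 3 at an unadjusted p under 0.05, and DESeq2 called Fosb. Their median was -0.71.

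Around Fgf21, 17 regulators and receptors gave 2 higher and 2 lower. Nr1d1, the clock repressor REV-ERBalpha, stood at 96.3, 86.6, 225 and 127.5 CPM against 43.5, 30.7, 78.9 and 66.6 CPM. It was higher by 1.32 (SE 0.19, adjusted p = 0.0118, at most 0.0442 with 1 left out). Under each label both Colo201 libraries were above both HCT116 libraries. Fgfr2 was higher (0.69, adjusted p = 0.0184, up to 0.0607, lost without HCT116 1L or 1R). The deacetylase Sirt1 (-0.48, adjusted p = 0.028, up to 0.0931) and the receptor Fgfr3 (-0.70, adjusted p = 0.042, up to 0.133) were lower. The co-receptor Klb (38.1 ± 6.03 against 31.8 ± 4.94 CPM, adjusted p = 0.228) and Fgfr4 (61.1 ± 1.81 against 65.8 ± 3.45 CPM, adjusted p = 0.566) did not pass, and Ppara had an adjusted p of 0.0607 (-0.67).

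Targets of PPARA, the other main input to Fgf21, gave 5 lower and 1 higher of 20, with a median of -0.14. Lower were, among others, Acadm (-0.49, adjusted p = 0.0157, up to 0.0558, lost without Colo201 4L or HCT116 1L), Ehhadh (-0.67 from 280.2 ± 46.8 against 455 ± 87.8 CPM, adjusted p = 0.0242, up to 0.0753) and Acaa1b (-0.73, adjusted p = 0.0253, up to 0.0873). Cyp4a14 was also lower (-1.37, adjusted p = 0.0404, up to 0.107), and these 4 are enzymes of fatty acid oxidation. The higher gene was Plin2, a coat protein of lipid droplets, at 709, 430.3, 532 and 491 CPM against 281, 271, 249 and 216.5 CPM. Its groups did not overlap (1.13, SE 0.16, adjusted p = 0.0109, at most 0.0448 with 1 left out).

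**Figure D5:**
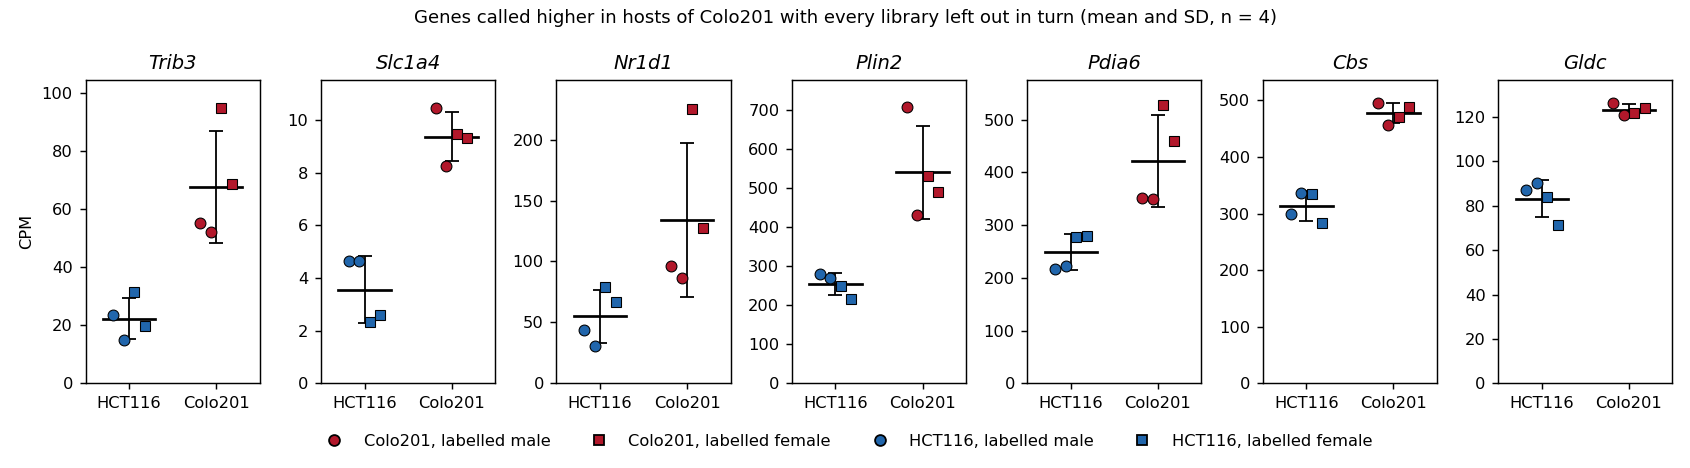
CPM of Trib3 and of the 6 genes of the lists that kept an adjusted p under 0.05 whichever library was left out, by line and sex label, with mean and SD. In each panel the 4 Colo201 libraries (red) lie above the 4 HCT116 libraries (blue).

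The genes whose pattern over the 8 libraries was most like that of each gene were ranked by Pearson's r of log2 CPM among about 12730 genes with a mean of at least 1 CPM. These r describe 8 libraries that share lines, labels and title numbers, and high values arise among so many genes. For Trib3 they were Mapkapk2 (0.994), Rogdi (0.983) and Nt5c (0.982). For Fgf21 they were Psmc5 (0.949), Gm16740 (0.941) and Tufm (0.940). Atf4 ran closest to Tmem128 (0.966), Rpl7l1 (0.939) and Ddx31 (0.929), and Atf3 to Nucb2 (0.979), Chtop (0.962) and Nr4a1 (0.959). Nearest to Ddit3 were Tbc1d16 (0.974), Hs3st3a1 (0.964) and Fli1 (0.948). Chac1 ran closest to Cd1d1 (0.946), Zfp965 (0.946) and Slc17a1 (0.941), and Sesn2 to Tnks1bp1 (0.979), Clcn6 (0.975) and Txnrd2 (0.974). Asns ran closest to Arpp19, Slx4ip and Golph3l (0.921 to 0.942), and Psat1 to Tmem8b, Zfp874a and Rnf43 (0.931 to 0.953). For Phgdh they were Fam104a, Cadm1 and Slc19a2 (0.940 to 0.949). The counts of Asns, Psat1 and Phgdh behind these r were low, at most 63 in a library. Of the nearest genes to Trib3, Mapkapk2 and Rogdi were themselves higher in Colo201 hosts (0.48 and 0.67, adjusted p = 0.0253 and 0.0271), and Nt5c did not pass (0.23, adjusted p = 0.127). None of the 10 genes was among the 3 nearest to another of them, and nothing is drawn from this. Asns, Psat1 and Phgdh were below 1 CPM on average and were not candidates. Among about 12730 candidates a given gene would rarely reach the first 3.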

How the data were processed

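Liver RNA was extracted with TRIzol and sequenced as 8 TruSeq stranded mRNA libraries, per the labels' protocols. Reads were processed with HISAT2 and StringTie on the mm10 build (GRCm38), per the submitters' processing notes. Tool versions, annotation and strand setting were not given in the sources used here. Counts of overlapping genes may therefore be joined. The authors deposited a table of estimated counts, whole numbers per gene, and a table of FPKM. Multiples of 4 made up 43.9 to 45.0% of the low values (at most 16), so a fragment was taken as 4 counts for limits. Most low values were not such multiples, so this is an assumption and the limits are approximate. Of 55401 identifiers, 55141 matched a symbol in GENCODE vM21, and where a symbol had 2 identifiers the one with more counts was used. Chi-square tests of the counts found no duplicate libraries (lowest value per gene 52.8).

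Counts were scaled by TMM, filtered by filterByExpr on the design and tested by the quasi-likelihood functions of edgeR 4.0.16 (R 4.3.3), two-sided, with Benjamini-Hochberg adjustment. Sex label was a covariate in the comparison of lines (16819 genes, 5 residual degrees of freedom). Comparisons within a label and the interaction, labelled female minus labelled male, came from a fit of 4 means (17669 genes). CPM use library totals and are given as mean ± SD, and FPKM compare genes. The 10 genes, the lists and the tests were chosen with earlier results of these data known. The genes named are the 10, their paralogs, from each list up to 6 genes that passed and up to 3 others of smallest p, and the 3 nearest patterns of each. A gene of the lists that passed is not reported here. Klb, Fgfr4, Slc7a11 and the single cell type markers were named after their values were seen. Alternatives were other scalings, filters, tools (DESeq2 1.42.0, limma 3.58.1), covariates, log2 FPKM with a pseudocount of 1 or 0.1, summed title numbers, counts divided by 4 and each library left out. A further filter, by combination of line and label, was chosen after seeing the data. Simulated data with known changes served to test the fits. A first criterion, on the share of changes recovered, was not met and was replaced after that result was seen. Even at the larger simulated fold, changed genes with a mean under 1 CPM were seldom recovered, a level at which Asns, Psat1 and Phgdh lie. The simulated libraries were drawn independently, without an effect of the sex label and without L and R pairs. Recovery in the real libraries may therefore differ.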

Additional observations from a re-analysis of the deposited data

Results flagged for a closer look

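In 32 groups of 4 libraries (the 10 genes and their relatives Sesn1, Sesn3, Trib1, Trib2, Chac2 and Atf5, in each line), 6 had 1 library whose gap to the nearest other exceeded the critical share of the group's range in Dixon's test, which chance alone gives in about 1 of 20 groups. Fgf21 in Colo201 hosts had a gap of 0.854 of the range, from Colo201 2L at 3.83 CPM, and Fgf21 in HCT116 hosts a gap of 0.861, from HCT116 3R at 2.77 CPM. Atf5 in Colo201 hosts had a gap of 0.883, from Colo201 2L at 441 CPM, and Atf5 in HCT116 hosts a gap of 0.868, from HCT116 1L at 137 CPM, the lowest. Phgdh had a gap of 1 (the whole range) in both lines, since Colo201 2R (4 counts) and HCT116 1L (12 counts) are the only libraries above 0. With all other libraries at 0 such a gap is fixed. The Phgdh groups therefore cannot be set against the rate of 1 in 20.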

How the results depend on the processing

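No paired analysis was possible because no replicate number is shared between the lines. Trib3 kept its direction in all 14 other settings and with each library left out, and its call in all but 1, summed title numbers (log2 fold change 1.61, adjusted p = 0.111), where 0 of the 9 genes were called. Over all genes, DESeq2 called 966 higher and 1016 lower, omitting the sex label 105 and 102, omitting the filter 288 lower, and summed title numbers 0 and 0 (with 3443 genes below 0.05 before adjustment). Leaving out 1 library gave 89 to 280 higher and 91 to 294 lower over all genes, and 6 to 11 higher and 0 to 6 lower in the lists. With limma voom 1 gene was called within the female label (Trib3) and 1 between sex labels (Sesn2), as also without HCT116 1R (0 to 1 with 1 library left out). The cause was not tested.

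Genes near 0 changed sign, none with a call. Between the lines this was Ddit3 with upper quartile scaling (0.003) and Sesn1 with library totals (-0.000) and log2 FPKM (-0.008 and -0.010). With limma voom it was Atf3 within the female label (0.35) and in the interaction (0.78), and Fgf21 between sex labels (0.049). With 1 library left out, values between the lines ran from -0.70 to 0.40 for Atf3, -0.12 to 0.056 for Ddit3, -0.15 to 0.46 for Asns, -0.33 to 1.37 for Fgf21 and -0.01 to 0.10 for Sesn1. Within the male label they ran from -1.22 to 0.18 for Atf3, -0.10 to 0.31 for Ddit3 and -0.40 to 1.33 for Asns. Within the female label they ran from -0.11 to 0.35 for Atf4, -1.19 to 1.79 for Atf3, -0.37 to 0.55 for Asns, -0.23 to 1.42 for Psat1 and -1.30 to 0.995 for Fgf21. In the interaction they ran from -0.35 to 0.10 for Atf4, -0.83 to 2.14 for Atf3, -0.18 to 0.52 for Trib3, -1.32 to 0.42 for Asns, -0.97 to 1.55 for Chac1 and -0.45 to 0.046 for Sesn2. Between sex labels they ran from -0.69 to 0.42 for Atf3, -0.21 to 0.96 for Psat1 and -0.89 to 0.82 for Fgf21. Depth limits Asns and Phgdh, which lie near the level of 3 fragments. Psat1 was also low, from 0 to 0.963 CPM, and varied between libraries (SE 0.947 for its log2 fold change between the lines).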
